A study of Mus musculus with 24 samples.

Results

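The lysosome genes described here are 44 mouse genes that encode the acid proteases and other hydrolases of the lysosome, the proton pump that acidifies it, and several of its membrane proteins. They were chosen by name, as the probes whose accession belongs to 1 of 44 RefSeq symbols, out of 22911 symbols that the probes of the array carried. Of these 44 genes, 44 could be tested in the lung and in the kidney, 43 in white adipose tissue (WAT) and 42 in the liver. The cathepsin E gene (Ctse) was too dim for a test in the liver and the pump subunit gene Atp6v1b1 in the liver and in WAT. The brightest probe stood for a gene, which was tested in a tissue if that probe exceeded background clearly on 3 or more of the 6 arrays.

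The arrays held RNA from liver, lung, kidney and WAT of C57BL/6J mice, all male, at 10 weeks (young) and at 90 weeks (aged), with 3 mice for each tissue and age and 24 arrays in all. The sources name no treatment and no engineered allele for these mice, and the fat depot of the WAT samples is not given. The aged livers carry the numbers 1, 2 and 4, and the labels do not say whether 1 mouse gave several tissues. Levels below are log2 of the background-subtracted fluorescence relative to the 75th percentile of the same array, so that 0 is the level of that percentile, and changes are the mean at 90 weeks minus the mean at 10 weeks on this log2 scale. Levels of different genes were not compared, because each gene was read by a probe of its own. Aged and young mice were compared in each tissue by limma with Benjamini-Hochberg adjustment over all features of the tissue, and a gene was called higher or lower at an adjusted p under 0.05. All 6 arrays of a tissue shared 1 slide that held both ages, so tissue and slide cannot be told apart.

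Probes well above background made up 58.6% to 71.1% per array. The summed linear signal of 7 hepatocyte genes lay between 2882 and 4954 times the 75th percentile in liver and that of 7 lung epithelial genes between 1939 and 2882 in lung. The sum of 5 proximal tubule genes was 531 to 1370 in kidney and that of 7 adipocyte genes 1030 to 1705 in WAT, so each labelled tissue carried its own markers. Some arrays carried signal that the other arrays of their tissue lacked. Young WAT mouse 1 had a summed signal of 30.0 for 6 genes of kidney intercalated cells, against 0.778 to 1.96 in the other 5 WAT mice. Its log2 levels of Rhcg (4.56), Foxi1 (1.64), Slc4a9 (1.49) and Aqp6 (-1.49) were above those of the other WAT mice. Its Slc4a1 (-3.42) and Slc26a4 (-4.37) lay within their range. The lowest correlation between arrays of a group, 0.933, was also among the young WAT arrays. Aged lung mouse 1 had 217 for the hepatocyte genes against at most 8.58 in the other lungs. The 8 neutrophil genes summed to 1421 in aged liver mouse 2, to 1496 in aged lung mouse 2 and to 911 in aged WAT mouse 3, against at most 28.2, 313 and 96 in the other mice of those tissues.

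Lysosomes are membrane-bound compartments in which proteins, glycans and lipids are broken down at acid pH. Cathepsins are their main proteases and glycosidases remove sugars from glycoproteins and glycolipids. Acidity is set by the vacuolar ATPase, a rotary pump made of a membrane-embedded V0 sector and a cytosolic V1 sector that hydrolyses ATP. Macrophages and osteoclasts are rich in lysosomes and secrete some of these proteases, and acid-secreting intercalated cells of the kidney carry the same pump at their plasma membrane with cell-type-specific subunits. In these bulk tissues a change in the number of cells of a type and a change in the RNA per cell cannot be told apart.

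Many lysosome genes are controlled by transcription factors of the TFEB and TFE3 family, which bind an E-box with the core letters CACGTG. RefSeq promoter windows of the build GRCm38.p6, from 250 bases before to 50 bases after an annotated start, were matched for 34 of the 44 genes, and not for Atp6v0d2, Atp6v1b2, Atp6v1c1, Atp6v1g1, Atp6v1h, Ctsb, Ctse, Ctsh, Ctsw and Npc1. Searched on both strands, which the palindromic letters make the same search, CACGTG stood in the window of 10 of these 34 genes (29.4%) against 8.09% of 27025 genes in the whole table. The 8 letters TCACGTGA, which contain the shorter motif, stood in 4 of 34 genes (11.8%) against 1.12% of all genes. The 4 windows with the longer motif, those of Ctsa, Ctsd, Atp6v0d1 and Atp6v1a, are printed with that of Lamp1, which held 4 copies of the shorter one, and that of Ctss, the gene with the largest change in the kidney, which held none. Capitals mark CACGTG and the sequences run 5′ to 3′ along the gene's strand.
Ctsa (chr2:164833523-164833822, plus strand): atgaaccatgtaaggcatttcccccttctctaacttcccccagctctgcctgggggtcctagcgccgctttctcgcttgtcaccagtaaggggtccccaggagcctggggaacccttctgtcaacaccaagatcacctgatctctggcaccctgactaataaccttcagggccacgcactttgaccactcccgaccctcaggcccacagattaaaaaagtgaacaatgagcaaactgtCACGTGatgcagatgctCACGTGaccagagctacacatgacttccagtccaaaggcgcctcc
Ctsd (chr7:142387778-142388077, minus strand): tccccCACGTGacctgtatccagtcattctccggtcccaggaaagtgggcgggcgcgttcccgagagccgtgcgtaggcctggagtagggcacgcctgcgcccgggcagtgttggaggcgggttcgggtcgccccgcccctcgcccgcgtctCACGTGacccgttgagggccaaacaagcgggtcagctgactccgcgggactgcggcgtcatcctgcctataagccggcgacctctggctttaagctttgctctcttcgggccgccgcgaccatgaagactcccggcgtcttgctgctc
Atp6v0d1 (chr8:105566015-105566314, minus strand): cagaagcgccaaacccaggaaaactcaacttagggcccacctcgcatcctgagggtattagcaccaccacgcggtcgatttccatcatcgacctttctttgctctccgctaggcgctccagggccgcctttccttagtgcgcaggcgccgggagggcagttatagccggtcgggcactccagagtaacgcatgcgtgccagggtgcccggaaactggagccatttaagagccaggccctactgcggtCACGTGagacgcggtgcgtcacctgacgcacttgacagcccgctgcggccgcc
Atp6v1a (chr16:44139210-44139509, minus strand): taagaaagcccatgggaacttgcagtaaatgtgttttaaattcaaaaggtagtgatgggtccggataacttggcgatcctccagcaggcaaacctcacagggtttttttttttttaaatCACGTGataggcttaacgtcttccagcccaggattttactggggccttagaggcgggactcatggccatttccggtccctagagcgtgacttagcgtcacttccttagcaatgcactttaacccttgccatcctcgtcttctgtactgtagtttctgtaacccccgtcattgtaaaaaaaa
Lamp1 (chr8:13158911-13159210, plus strand): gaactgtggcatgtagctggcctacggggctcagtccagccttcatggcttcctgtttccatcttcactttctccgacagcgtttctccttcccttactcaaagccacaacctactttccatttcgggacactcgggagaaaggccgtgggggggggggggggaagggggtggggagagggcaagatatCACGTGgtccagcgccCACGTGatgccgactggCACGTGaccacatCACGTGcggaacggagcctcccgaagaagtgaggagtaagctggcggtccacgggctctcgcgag
Ctss (chr3:95526536-95526835, plus strand): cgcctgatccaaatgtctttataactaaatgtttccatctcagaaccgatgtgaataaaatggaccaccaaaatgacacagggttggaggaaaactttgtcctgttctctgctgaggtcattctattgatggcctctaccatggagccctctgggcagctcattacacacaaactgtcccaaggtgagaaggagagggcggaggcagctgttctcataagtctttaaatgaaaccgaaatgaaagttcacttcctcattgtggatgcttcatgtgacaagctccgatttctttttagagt
The first letter of the motif lay at -12 and 6 in Ctsa, at -245 and -98 in Ctsd, at -3 in Atp6v0d1, at -131 in Atp6v1a and at -61, -45, -28 and -15 in Lamp1, counted from the start with 1 as its first base. The other genes with CACGTG in a window were Atp6v0b, Ctsf, Ctsl, Gaa and Glb1. These matches describe letters and no binding was measured.

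The members moved differently in each tissue. In the kidney 12 of 44 were called higher (27.3%, against 20.6% of all features tested there) and 25 lower (56.8%, against 42.6%). In the liver 12 of 42 were higher (28.6%, against 10.5% of all features) and 1 was lower (2.38%, against 17.0%). In the lung 4 of 44 were higher (9.09%, against 2.72%) and 1 lower (2.27%, against 2.89%). In WAT 5 of 43 were higher (11.6%, against 2.01%) and 0 lower (background 0.579%), although 40 of 43 changes lay above 0. At an unadjusted limma p under 0.05, 26 members were higher in WAT and 0 lower, against 9.86% and 9.42% of all features. With 1 spread shared by all 24 arrays, 30 were called higher in WAT and 0 lower, against 10.9% and 10.4% of all features in that fit. The median change of the members was 0.28 for liver, 0.04 for lung, -0.35 for kidney and 0.83 for WAT, beside medians over all features of -0.20, -0.08, -0.23 and -0.05. The spread between mice in WAT was wider than elsewhere, with a median standard error of a member's change of 0.29 against 0.17 in the liver, 0.12 in the lung and 0.09 in the kidney. A spread shared with the other tissues therefore understates that of WAT, and the 30 calls rest on it.

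**Figure D1:**
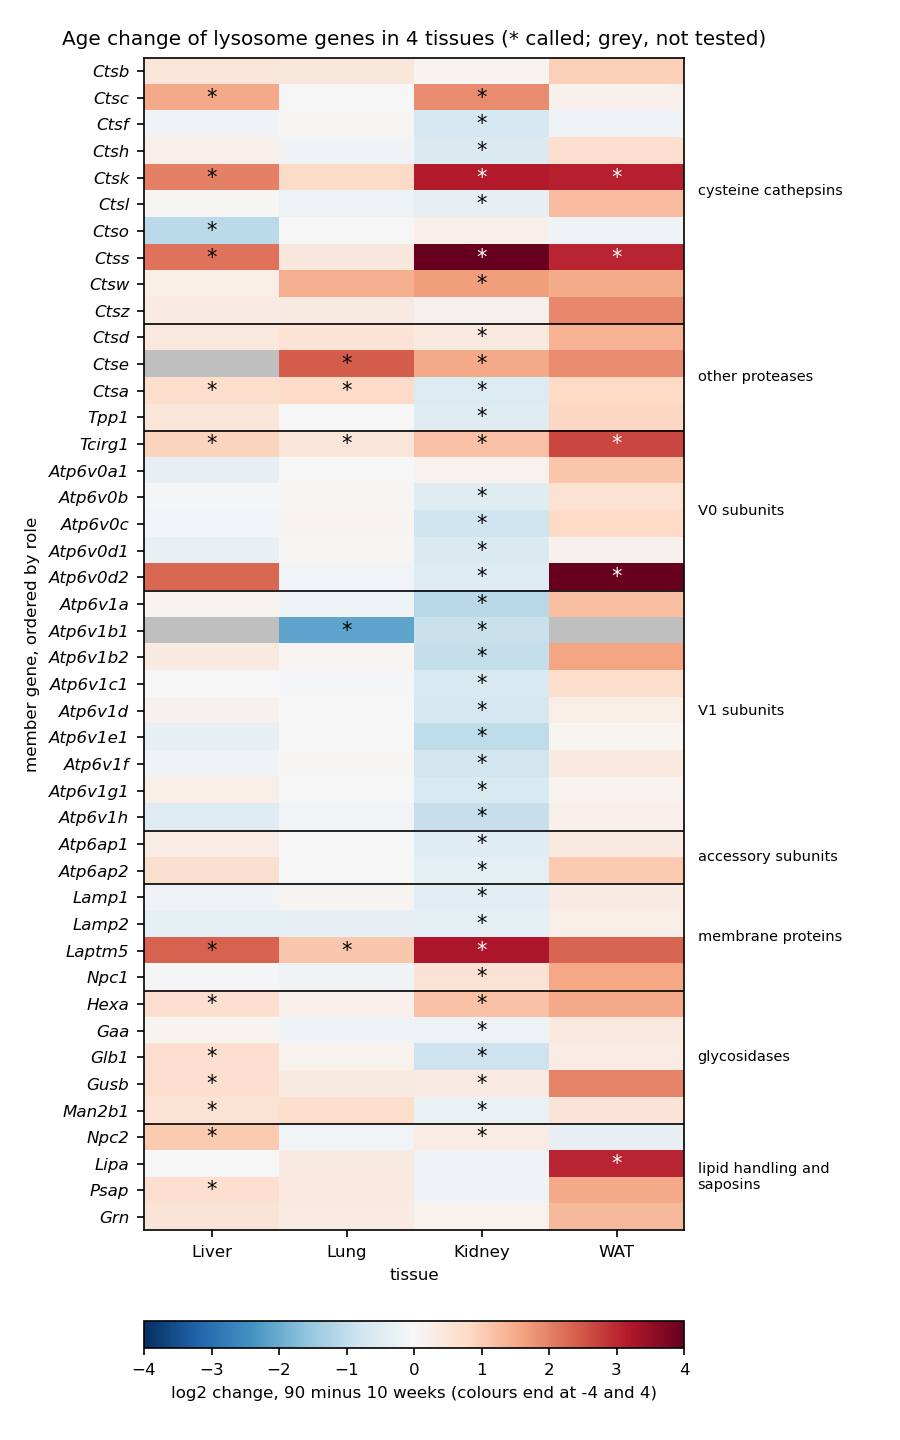
Change from 10 to 90 weeks (log2, colour) of the 44 genes, in rows ordered by role, in the 4 tissues, with 3 mice per age. Asterisks mark genes called by limma and grey cells were not tested. The kidney column holds a block of lower pump genes, with 15 of 17 called lower (42.6% of all features were), and the WAT column has 40 of 43 changes above 0.

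How the arrays were scaled decided many of the kidney calls. Scaling to the spike-in spots in place of the 75th percentile moved the median over all features from -0.23 to 0.12 in the kidney, from -0.20 to -0.04 in the liver and from -0.08 to -0.24 in the lung. In the kidney the split of member calls turned from 12 higher and 25 lower to 17 higher and 10 lower, and under quantile normalization to 19 higher and 11 lower. All 12 kidney members called higher were also called higher under both of these scalings. Of the 25 called lower, 10 remained called with spike-in scaling and 11 with quantile normalization, while 3 and 7 of them changed sign. In the liver 6 of the 12 members called higher remained called with spike-in scaling (Ctsc, Ctsk, Ctss, Tcirg1, Npc2 and Laptm5). The liver changes as a whole did not move down with it, since 36 members lay above 0, against 30 with the 75th percentile. In the lung the split of 4 higher and 1 lower became 2 and 1 with the normexp background correction, 3 and 0 with quantile normalization and 1 and 1 with spike-in scaling.

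**Figure D2:**
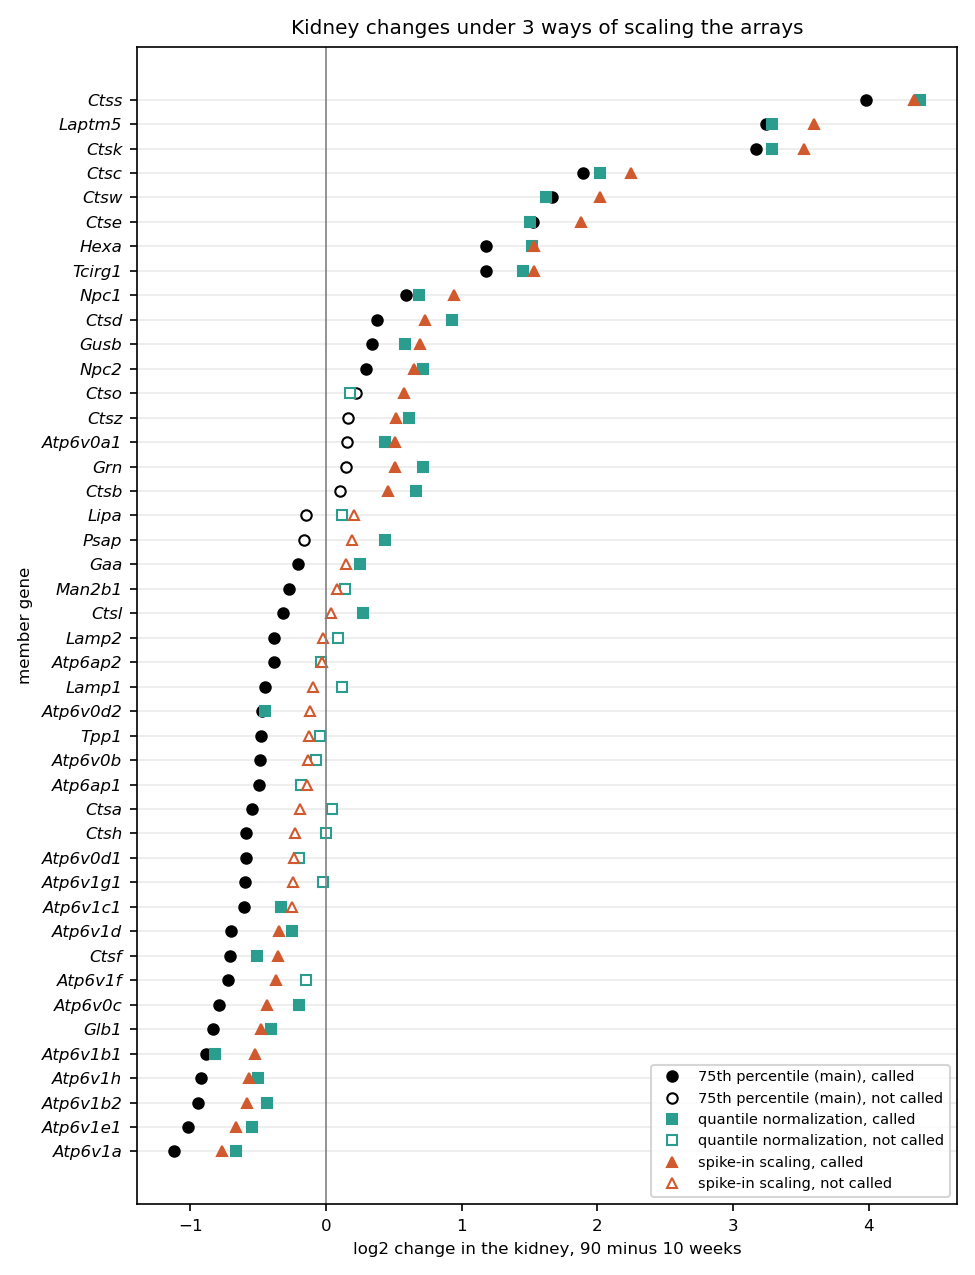
Change in the kidney (log2, 90 minus 10 weeks) of each of the 44 genes with the arrays scaled to the 75th percentile (circles), by quantiles (squares) or to the spike-in spots (triangles), filled where limma called the gene. The 12 genes called higher kept their call under the 3 scalings, whereas 15 of the 25 genes called lower with the 75th percentile lost that call with spike-in scaling.

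Cysteine cathepsins, 10 of the members, held the largest rise in the kidney. In the kidney 4 were called higher and 3 lower, beside 20.6% and 42.6% of all features, and in the liver 3 higher and 1 lower (10.5% and 17.0%). In WAT 2 were called higher (2.01% of all features) and in the lung 0 of 10 (2.72% higher and 2.89% lower). Ctss (NM_021281) encodes cathepsin S, which antigen-presenting cells use to trim the invariant chain of MHC class II. Its kidney level was 2.24, 2.72 and 2.35 in the young mice and 6.65, 6.40 and 6.20 in the aged mice, a rise of 3.98 (standard error 0.17, adjusted p = 4.03e-05 by limma), or 15.8-fold. No aged kidney came near a young one. In the liver Ctss stood at 4.28, 4.86 and 4.30 in young mice and at 6.43, 7.25 and 6.30 in aged mice, a rise of 2.18 (standard error 0.30, adjusted p = 0.00528 by limma). In WAT it was 3.72, 5.52 and 5.05 in young mice and 8.02, 7.24 and 8.12 in aged mice, higher by 3.03 (standard error 0.51, adjusted p = 0.0431 by limma). The age groups did not overlap in these 3 tissues. In the lung they did, with 5.66 to 5.92 in young and 5.43 to 6.95 in aged mice (change 0.45, adjusted p = 0.467 by limma).

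Ctsk (NM_007802) encodes cathepsin K, the collagen-degrading protease of osteoclasts. It stood at -0.42, -0.53 and -0.59 in young kidneys and at 3.02, 2.68 and 2.28 in aged kidneys, a rise of 3.17 (standard error 0.19, adjusted p = 9.97e-05 by limma). In WAT it was 1.60, 2.54 and 2.5 in young and 6.32, 5.12 and 4.53 in aged mice, higher by 3.11 (standard error 0.51, adjusted p = 0.0422 by limma). In the liver it was -2.27, -3.02 and -1.78 in young mice and between -0.38 and -0.31 in aged mice, a rise of 2.01 (standard error 0.30, adjusted p = 0.00715 by limma). With normexp the liver change was 1.2. The young livers were spread over more than 1 log2 unit whereas the aged livers were nearly equal. Ctsc, cathepsin C, which activates the serine proteases of granules, rose by 1.90 in the kidney (0.28, 0.35 and 0.33 in young mice, 2.34, 2.26 and 2.04 in aged mice) and by 1.51 in the liver. Its change in WAT was 0.16 and in the lung -0.03, neither called. Ctsw, a cathepsin of cytotoxic lymphocytes, rose by 1.67 in the kidney.

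With the main scaling none of the broadly expressed cysteine cathepsins was called higher in any tissue. Ctsh, an aminopeptidase, fell by 0.59 in the kidney, Ctsf fell by 0.71 and Ctsl, cathepsin L, fell by 0.31, and with quantile normalization Ctsh and Ctsl changed sign there, Ctsl also with spike-in scaling. Ctsb and Ctsz were called in no tissue with the main scaling. In the kidney both were called higher with quantile normalization and with spike-in scaling, and Ctsl with quantile normalization. In the liver Ctsb, Ctsh and Ctsz were called higher with quantile normalization, Ctsb also with normexp. In WAT the changes of Ctsl, Ctsz, Ctsb and Ctsh were 1.25, 1.93, 0.94 and 0.66. Those of Ctsf and Ctso were -0.15 and -0.14 there, and none of these was called. Ctso (NM_177662) was the single member called lower in the liver: it stood at -0.99, -1.71 and -1.69 in young mice and at -2.56, -2.86 and -2.18 in aged mice, lower by -1.07 (standard error 0.27, adjusted p = 0.0293 by limma). That call was lost with spike-in scaling (adjusted p up to 0.116 over its alternatives).

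Among the other proteases, Ctse gave the largest rise in the lung. Ctse (NM_007799) encodes cathepsin E, an aspartic protease of immune and epithelial cells. It was dim, at -4.94, -4.59 and -4.90 in young lungs and at -2.13, -2.61 and -2.45 in aged lungs, higher by 2.41 (standard error 0.17, adjusted p = 0.00864 by limma), and by 1.36 with normexp. It also rose by 1.53 in the kidney, and in WAT its change of 1.88 was not called (adjusted p = 0.163 by limma). Ctsd, cathepsin D, the main aspartic protease of lysosomes, rose in the kidney by 0.38, with changes of 0.41 to 1.38 in the other tissues that were not called. Tpp1, the tripeptidyl peptidase lost in a neuronal ceroid lipofuscinosis, fell by 0.48 in the kidney, a call lost with quantile normalization and with spike-in scaling.

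Ctsa (NM_001038492) encodes protective protein cathepsin A, which stabilizes beta-galactosidase and neuraminidase in a complex. It was called in opposite directions. In the kidney it was 6.80, 6.83 and 6.77 in young and 6.18, 6.26 and 6.34 in aged mice, lower by -0.54 (standard error 0.08, adjusted p = 0.00163 by limma). Liver levels were 5.92, 6.03 and 6.06 in young and 6.5, 6.98 and 6.61 in aged mice, higher by 0.69 (standard error 0.18, adjusted p = 0.0317 by limma). In the lung it was 3.28, 3.53 and 3.23 in young and 4.08, 3.88 and 4.34 in aged mice, higher by 0.76 (standard error 0.15, adjusted p = 0.049 by limma). The age groups did not overlap in any of the 3, and the kidney change turned to 0.047 with quantile normalization. The lung call was lost under 11 of 15 alternatives, among them normexp, quantile and spike-in scaling, and the liver call under 7 of 15, among them spike-in scaling.

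The 17 proton pump genes separated the kidney from WAT. In the kidney 15 of 17 were called lower and 1 higher, beside 42.6% and 20.6% of all features, with a median change of -0.60. In WAT all 16 tested had a change above 0, with a median of 0.66, and 2 were called higher (2.01% of all features were). In the liver 1 of 16 was called higher, and in the lung 1 of 17 was higher and 1 lower, with medians of 0.08 and 0.01 (-0.15 in the lung with spike-in scaling). Over all features 10.5% were called higher in the liver, and 2.72% higher and 2.89% lower in the lung. The same 15 kidney genes lay below 0 under each scaling tried, but the number called lower was 9 with quantile normalization and 8 with spike-in scaling. With quantile normalization the median of all 17 was -0.20, beside -0.16 over all features.

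**Figure D3:**
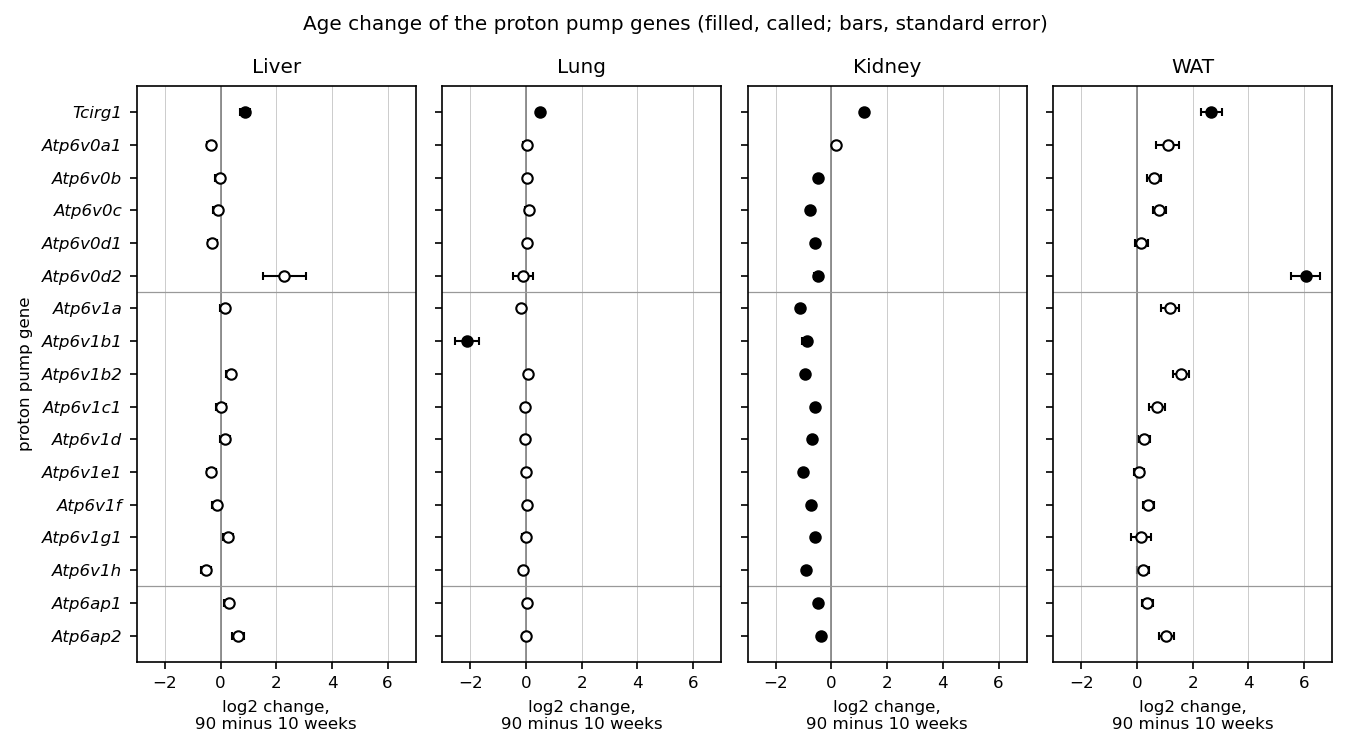
Change (log2, 90 minus 10 weeks) of the 17 proton pump genes in each tissue, with bars for the standard error and filled points for genes called by limma (3 mice per age). Upper, middle and lower blocks are V0, V1 and accessory subunits; kidney points lie left of 0 except Tcirg1 and Atp6v0a1, and WAT points lie right of 0.

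Tcirg1 and Atp6v0d2 are the V0 subunits of osteoclasts and some macrophages. Tcirg1 (NM_001167784), the a3 subunit, was the single member called higher in all 4 tissues. Its level was 2.12, 2.05 and 2.23 in young and 3.48, 3.31 and 3.15 in aged kidneys, a rise of 1.18 (standard error 0.11, adjusted p = 0.000404 by limma). In WAT it was 1.84, 2.65 and 2.89 in young and 5.67, 4.64 and 5.07 in aged mice, higher by 2.67 (standard error 0.38, adjusted p = 0.0277 by limma). Liver levels were 3.64, 3.82 and 3.96 in young and 4.51, 4.90 and 4.65 in aged mice, higher by 0.88 (standard error 0.18, adjusted p = 0.0154 by limma). The lung values of 2.75, 2.88 and 2.86 in young and 3.31, 3.22 and 3.46 in aged mice gave 0.50 (standard error 0.10, adjusted p = 0.0494 by limma). The lung call was lost under 13 of 15 alternatives, with adjusted p-values up to 0.296.

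Atp6v0d2 (NM_175406), a d subunit found in few cell types, had the largest change of any member. It stood at -1.79, -2.46 and -3.08 in young WAT and at 4.62, 3.14 and 3.09 in aged WAT, a rise of 6.06 (standard error 0.53, adjusted p = 0.00669 by limma), or 66.6-fold. In the kidney it was 0.77, 0.58 and 0.72 in young and 0.44, 0.25 and -0.06 in aged mice, lower by -0.47 (standard error 0.14, adjusted p = 0.0269 by limma). The WAT groups lay more than 4 log2 units apart at their nearest mice, whereas the kidney groups were separated by little and the call was lost under 6 of 15 alternatives, among them spike-in scaling. In the liver it was -2.05, -2.33 and -2.94 in young and 0.02, 1.45 and -1.93 in aged mice and was not called (change 2.29, adjusted p = 0.0656 by limma). Aged liver mouse 2, which was the highest, was also the liver with 1421 for the neutrophil genes, and the part of those cells in the result was not tested.

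The ubiquitous V0 subunits Atp6v0b, Atp6v0c and Atp6v0d1, the proteolipid ring and its stalk, fell in the kidney by 0.49, 0.79 and 0.59. Atp6v0b and Atp6v0d1 lost that call with quantile normalization and with spike-in scaling, whereas Atp6v0c kept it. The a1 subunit gene Atp6v0a1 was called in no tissue. None of these was called in WAT, where their changes ran from 0.16 to 1.1.

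In the V1 sector 9 of 9 genes were called lower in the kidney (42.6% of all features were), with changes of -1.12 to -0.60. Atp6v1a (NM_007508), the catalytic A subunit, was 5.68, 5.72 and 5.79 in young and 4.40, 4.63 and 4.80 in aged kidneys, a change of -1.12 (standard error 0.12, adjusted p = 0.000545 by limma). Atp6v1e1 (NM_007510), of the peripheral stalk, was 5.64, 5.80 and 5.71 in young and 4.54, 4.68 and 4.88 in aged kidneys, a change of -1.02 (standard error 0.11, adjusted p = 0.000607 by limma). Atp6v1b2 (NM_007509), the widely expressed B subunit, was 6.07, 5.98 and 6.06 in young and 4.98, 5.11 and 5.20 in aged kidneys, a change of -0.94 (standard error 0.09, adjusted p = 0.000391 by limma). Young and aged kidneys were about 1 log2 unit apart in each of these genes, which were called lower under every alternative run. With quantile normalization the changes shrank to -0.66, -0.55 and -0.44 and with spike-in scaling to -0.76, -0.67 and -0.59, in that order. Atp6v1h and Atp6v1b1 fell by 0.92 and 0.88 and the 4 others by 0.60 to 0.72. Of those 4, Atp6v1c1 lost its call with spike-in scaling, Atp6v1f with quantile normalization and Atp6v1g1 with both. The accessory subunits Atp6ap1 and Atp6ap2, the latter also known as the prorenin receptor, fell by 0.49 and 0.38. Neither accessory subunit was called with quantile normalization or with spike-in scaling.

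Atp6v1b1 (NM_134157), the B subunit of intercalated cells, was the single member called lower in the lung. It stood at -2.26, -2.21 and -2.95 in young lungs and at -5.28, -4.78 and -3.72 in aged lungs, of which 2 of 3 were well above background, a change of -2.12 (standard error 0.43, adjusted p = 0.049 by limma). The groups did not overlap, but the change was -1.03 with normexp, the call was lost under 10 of 15 alternatives, and it was lost whichever of the 3 young lungs was left out, with adjusted p-values up to 0.174 over all alternatives. In WAT it was above background in young mouse 1 alone, at -4.02 against -7.87 to -7.65 in the other 5 mice. In the kidney the 6 intercalated cell genes summed to 73.4 to 75.6 in young and 36.3 to 42.2 in aged mice, with 4 of 6 called lower. The 5 proximal tubule genes summed to 1212 to 1370 and 531 to 743, with 5 of 5 called lower. Over all kidney features 42.6% were called lower. The part of these cells in the lower pump genes was not tested.

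Age changes were also compared between tissues, each against the mean of the other 3, in 1 limma fit of all 24 arrays with 42 members. That fit gave each gene 1 spread over all tissues, which understates the wider spread of WAT. The WAT difference of Gaa, for example, had a standard error of 0.13, whereas the lowest for any member's own WAT change was 0.19. The p-values of WAT differences may therefore be too small. In the kidney 24 members had a lower change (14.6% of all features) and 3 a higher one (7.61% of all features). In WAT 27 had a higher change (9.56% of all features) and 1 a lower one (4.5%). Of the 16 pump genes in this fit, 14 had a lower change in the kidney and 13 a higher change in WAT. The mean set against the kidney held the WAT change and the reverse, so the kidney and WAT counts are not separate results. Atp6v1e1 was called higher in WAT at 0.07 there, against a mean of -0.44 that held -1.02 in the kidney. Psap was called lower in the kidney at -0.16 there, against a mean of 0.85 that held 1.51 in WAT. In the lung 8 members had a lower change (5.35% of all features) and 1 a higher one (7.19%), and in the liver 4 a lower (8.14%) and 2 a higher one (5.58%). With spike-in scaling the called members numbered 9 in the kidney in place of 27 and 13 in WAT in place of 28.

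The kidney change of Atp6v1b2 was lower than the mean of the other tissues, by -1.61 (standard error 0.20, adjusted p = 3.94e-05 by limma), with -0.94 in the kidney and 0.67 elsewhere. Atp6v0d2 was called in 3 tissues, and in the kidney and the lung the mean of the others held the WAT change of 6.06. Its change was lower in the kidney by -3.22 (standard error 0.69, adjusted p = 0.00291) and higher in WAT by 5.49 (standard error 0.69, adjusted p = 9.93e-05). The lung change of -0.10, against a mean of 2.62 elsewhere, was lower by -2.72 (standard error 0.69, adjusted p = 0.0153). Ctss rose more in the kidney than elsewhere, by 2.09 (standard error 0.46, adjusted p = 0.00384), and less in the lung, by -2.61 (standard error 0.46, adjusted p = 0.00186). Ctsc rose more in the kidney than the mean elsewhere, by 1.35 (standard error 0.28, adjusted p = 0.00235 by limma). That mean of 0.55 held -0.03 in the lung and 0.16 in WAT, whereas the liver rise of 1.51 was nearer the 1.90 of the kidney. The change of Ctsc in WAT was lower by -0.97 (standard error 0.28, adjusted p = 0.0279 by limma). The WAT difference of Ctsc was lost under 6 of 31 alternatives, among them spike-in scaling.

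Of the 4 lysosomal membrane proteins, 2 were called higher and 2 lower in the kidney, beside 20.6% and 42.6% of all features. In the liver 1 was called higher (10.5% of all features) and in the lung 1 (2.72%). Laptm5 (NM_010686), a lysosomal protein of blood cells, was called higher in 3 tissues. In the kidney it was -2.03, -1.66 and -1.94 in young and 1.60, 1.47 and 1.04 in aged mice, a rise of 3.24 (standard error 0.18, adjusted p = 7.27e-05 by limma). Liver levels were -0.05, 0.33 and 0.36 in young and 2.52, 3.21 and 1.97 in aged mice, a rise of 2.36 (standard error 0.32, adjusted p = 0.00514 by limma). In the lung it was 1.65, 1.85 and 2.04 in young and 2.86, 2.75 and 3.17 in aged mice, higher by 1.08 (standard error 0.16, adjusted p = 0.024 by limma). No groups overlapped, and in WAT the change of 2.33 was not called (adjusted p = 0.072 by limma). Lamp1 and Lamp2, the most abundant glycoproteins of the lysosomal membrane, fell in the kidney by 0.45 and 0.38, and with quantile normalization both changed sign. A dimmer second probe of Lamp2, above background on all 6 kidney arrays, changed by -1.04 with the main scaling. Npc1, the cholesterol exporter, rose in the kidney by 0.59.

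**Figure D4:**
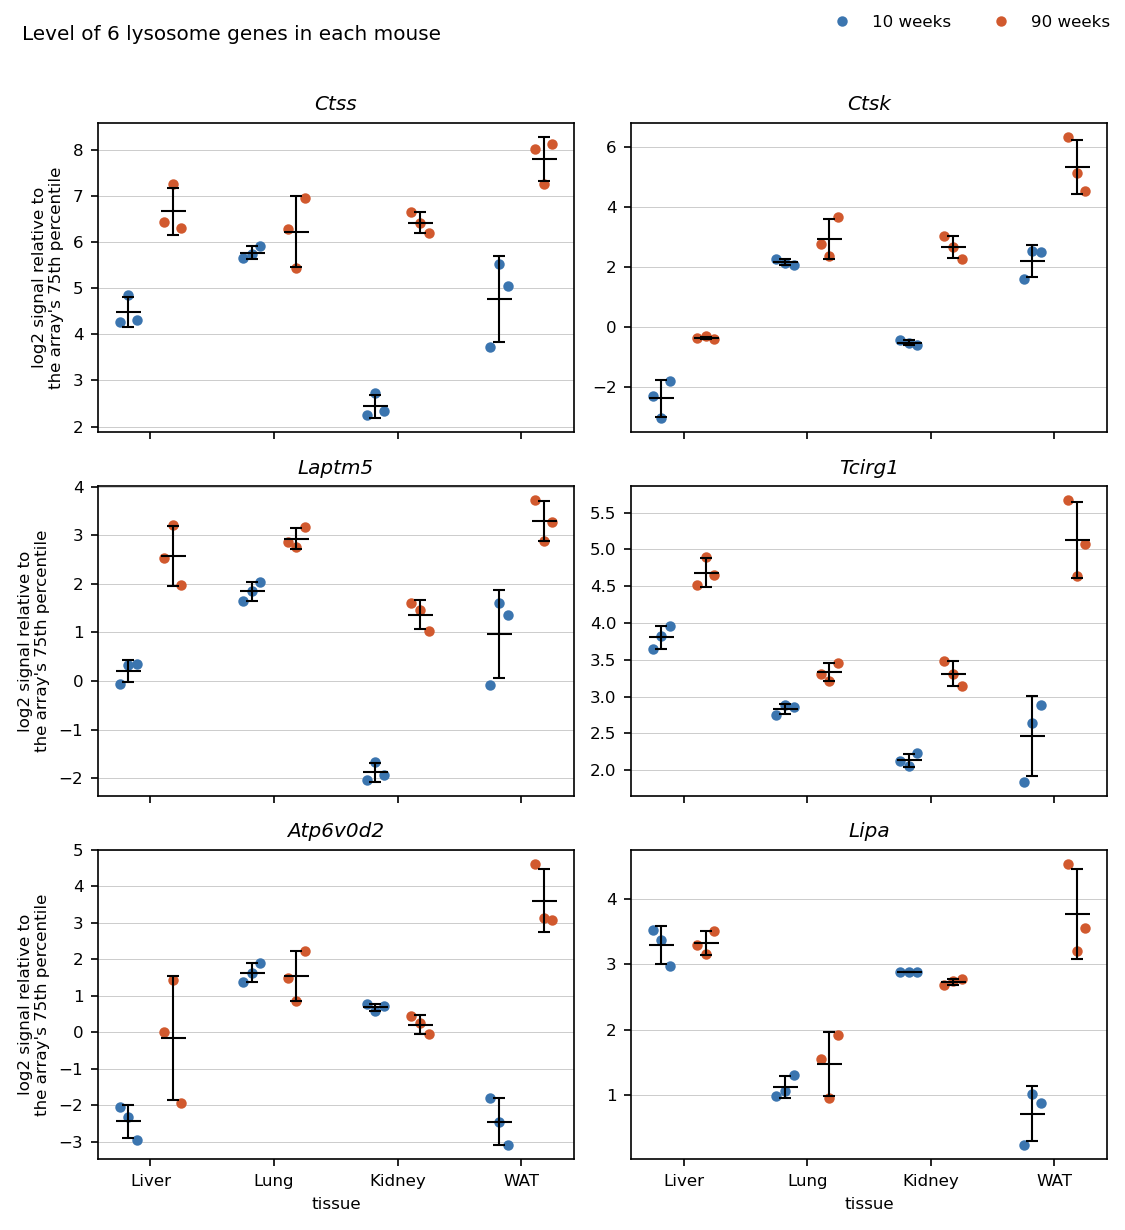
Level in every mouse (log2 of the signal over the 75th percentile of its array) of 6 members in the 4 tissues at 10 weeks (blue) and 90 weeks (orange), with the mean and its standard deviation (n = 3). Ctss, Ctsk and Laptm5 separate the ages in liver and kidney, Atp6v0d2 and Lipa do so by the widest margin in WAT, and young WAT mouse 1, the leftmost blue point, is the lowest young WAT mouse for Ctss, Ctsk, Laptm5, Tcirg1 and Lipa.

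Of the 5 glycosidases, 4 were called higher in the liver by 0.56 to 0.67 (10.5% of all features were), and none of these 4 was called there with spike-in scaling. In the kidney 2 were higher and 3 lower, beside 20.6% and 42.6% of all features. Hexa, the alpha subunit of beta-hexosaminidase, rose by 1.18 in the kidney and by 0.67 in the liver. Gusb, beta-glucuronidase, rose by 0.34 and 0.67. Glb1 (NM_009752) encodes the beta-galactosidase whose activity is stained as a marker of senescent cells. It was 5.03, 5.10 and 5.12 in young and 3.97, 4.25 and 4.52 in aged kidneys, a change of -0.83 (standard error 0.15, adjusted p = 0.00352 by limma). Liver levels were 2.0, 2.09 and 2.07 in young and 2.62, 2.80 and 2.72 in aged mice, higher by 0.66 (standard error 0.14, adjusted p = 0.0199 by limma). The groups were apart in both tissues and the signs opposite. The kidney call was kept under every alternative run, at -0.41 with quantile normalization and -0.48 with spike-in scaling, and the liver call was lost under 4 of 15. The change of Glb1 in the liver was higher than elsewhere by 0.80 (standard error 0.24, adjusted p = 0.032 by limma). The mean elsewhere, -0.14, held the kidney change of -0.83. This difference was lost under 8 of 31 alternatives, among them quantile normalization. In lung and WAT, Glb1 changed by 0.13 and 0.29 and was not called, and young WAT mouse 1 stood above the other young mice, at 3.89 against 3.11 and 2.90. Without that mouse the WAT change was 0.58 (adjusted p = 0.283 by limma).

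Man2b1 (NM_010764), lysosomal alpha-mannosidase, was 4.36, 4.43 and 4.36 in young and 4.07, 4.08 and 4.18 in aged kidneys, a change of -0.27 (standard error 0.08, adjusted p = 0.0203 by limma). This small decrease turned to a change above 0 with quantile normalization and with spike-in scaling. In the liver it was 4.19, 4.33 and 4.31 in young and 4.92, 4.84 and 4.77 in aged mice, higher by 0.56 (standard error 0.14, adjusted p = 0.0308 by limma). Gaa, the acid alpha-glucosidase lost in Pompe disease, fell by 0.21 in the kidney, which also turned above 0 under both scalings. Over the 25797 features tested in every tissue, 2.59% were called in opposite directions in different tissues. Of the members, 4 were (Ctsa, Glb1, Man2b1 and Atp6v0d2). Likewise 4 members (Ctss, Ctsk, Laptm5 and Tcirg1) were higher in 3 or more tissues, against 2.49% of these features.

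Of the 4 genes of lipid handling and saposins, the liver had 2 called higher, the kidney 1 and WAT 1. Over all features 10.5%, 20.6% and 2.01% were called higher in those tissues. Lipa (NM_021460) encodes the lysosomal acid lipase, which hydrolyses cholesteryl esters and triglycerides. It was 0.24, 1.03 and 0.89 in young and 4.53, 3.21 and 3.55 in aged WAT, a rise of 3.05 (standard error 0.40, adjusted p = 0.0233 by limma), or 8.27-fold. The other tissues showed little, with changes of 0.03 in the liver, 0.35 in the lung and -0.15 in the kidney, not called. Its WAT change was higher than the mean of the other tissues by 2.97 (standard error 0.32, adjusted p = 2.32e-05 by limma). Npc2, the soluble partner of Npc1, rose by 1.06 in the liver (4.01, 3.96 and 3.66 in young, 4.98, 4.90 and 4.92 in aged mice), more than elsewhere by 1.11 (standard error 0.30, adjusted p = 0.0179 by limma). In WAT it was 7.69 in young mouse 1 and 6.16 and 6.17 in the other young mice, and its change of -0.34 became 0.17 without that mouse, called neither way. Psap, the precursor of the saposins, rose by 0.67 in the liver. Grn, progranulin, was called in no tissue, and its 3 probes went in different directions in the liver, with 0.52 for the brightest and -3.49 and 0.62 for the others. They did so in WAT as well, with 1.30 for the brightest and -0.52 and 1.41 for the others.

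Without young WAT mouse 1, 4 members were called higher in WAT, 40 of 43 changes lay above 0 and the median was 0.78. Without aged WAT mouse 3 the number called fell to 1, with a median of 0.90, and without aged liver mouse 2 the liver had 8 higher and 0 lower. The liver had 5 higher without young mouse 1 or without young mouse 2. In the lung 2 were called higher without aged mouse 1, 4 without aged mouse 2 and 0 without young mouse 1. In WAT the adjusted p of Ctss was 0.0391 without young mouse 1 and 0.123 without aged mouse 3, that of Ctsk 0.08 and 0.0634, that of Tcirg1 0.0444 and 0.0866 and that of Lipa 0.048 and 0.0731, all by limma. Only Atp6v0d2 was called in WAT whichever of the 6 mice was left out, whereas Ctss, Ctsk, Tcirg1 and Lipa lost their call without at least 3 of them. In the lung Laptm5 and Ctsa were not called whichever young mouse was left out, with adjusted p-values up to 0.112 and 0.178 over all alternatives, and Ctse was not called without young mouse 1 (at most 0.0608). In the liver, among other settings, Ctsa lost its call without aged mouse 2 and whichever young mouse was left out (at most 0.114), and Ctso, Tcirg1, Glb1 and Man2b1 without young mouse 1 or 2 (at most 0.116, 0.0775, 0.122 and 0.142).

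The aged mice of a tissue differed among themselves. In the kidney, aged mouse 1 was the highest of the 3 aged mice for 12 of the 12 genes called higher and the lowest for 22 of the 25 called lower. Aged mouse 1 was the highest aged WAT mouse in 37 of 43 members, and aged mouse 3 the highest aged lung mouse in 33 of 44. The 10 macrophage genes summed to 182, 150 and 130 in aged kidney mice 1 to 3 against 40.0 to 46.1 in young mice, to 624, 302 and 499 in aged WAT against 69.9 to 193, and to 185, 153 and 282 in aged lungs against 161 to 192. In the liver the sums were 243 to 320 in aged and 65.7 to 87.7 in young mice. Of these 10 genes, which were tested in every tissue, 9 were called higher in the kidney, 9 in the liver, 2 in WAT and 0 in the lung. Over all features 20.6%, 10.5%, 2.01% and 2.72% were called higher in those tissues. Median changes of the macrophage genes were 3.65, 2.06, 1.92 and 0.48 in that order. The part of macrophages in the changes of Ctss, Ctsk, Laptm5, Tcirg1, Atp6v0d2 and Lipa was not tested. Of 10 lymphocyte genes, 9 were called higher in the kidney, 6 in WAT, 4 in the liver and 4 in the lung, with median changes of 2.31, 2.75, 1.35 and 0.56. Adipocyte genes summed to 67.0 to 126 in young and 3.63 to 24.3 in aged lungs.

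At 10 weeks the pump genes were brightest in the kidney, where 14 of 17 had their highest mean of the 4 tissues. Over all 44 genes the highest mean lay in the kidney for 21, in the liver for 10, in WAT for 8 and in the lung for 5. Atp6v1a stood at 5.73 ± 0.05 (SD, n = 3) in the kidney against 3.06 ± 0.06 in the liver, 3.53 ± 0.03 in the lung and 3.18 ± 0.12 in WAT. Ctss ran the other way, lowest in the kidney at 2.44 ± 0.25 and highest in the lung at 5.77 ± 0.14. These levels were not tested, since each tissue lay on a slide of its own.

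**Figure D5:**
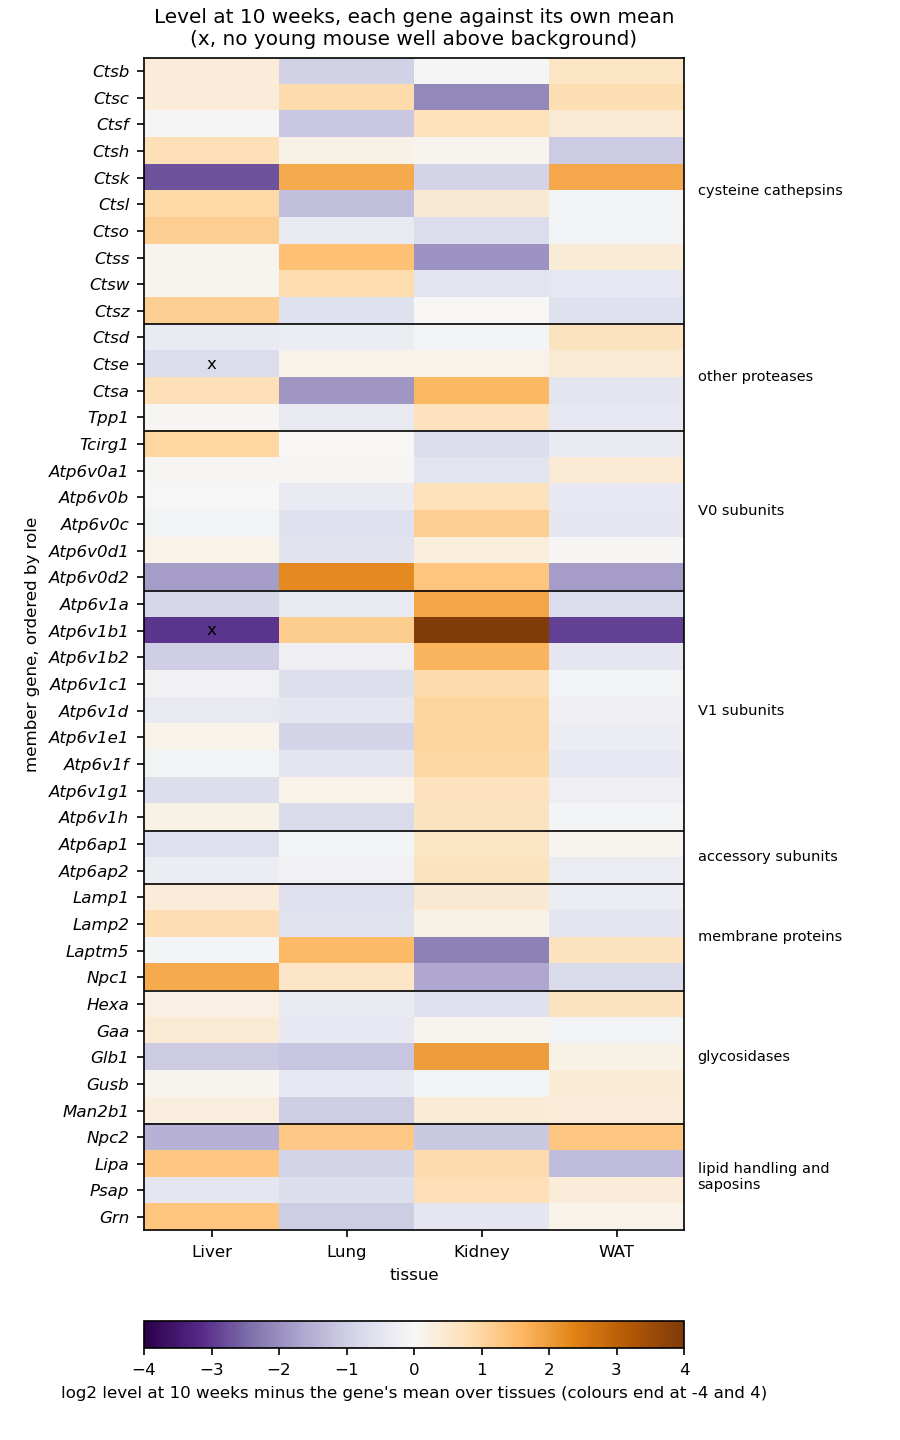
Mean level at 10 weeks (log2, 3 mice per tissue) of each gene minus its own mean over the 4 tissues, with genes in rows ordered by role and crosses where no young mouse was well above background. The kidney column is above the gene's mean for most V1 subunits and for Glb1 and below it for Ctss, Ctsc and Laptm5.

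A further 63 lysosome genes outside the list were counted in the same way. In the kidney 15 of 63 were called higher (23.8%, against 20.6% of all features) and 32 lower (50.8%, against 42.6%), shares near the background. The liver had 16 of 60 higher (26.7%, against 10.5%) and 1 lower (1.67%, against 17.0%). The lung had 1 of 62 higher (1.61%, against 2.72%) and 3 lower (4.84%, against 2.89%), and WAT 3 of 63 higher (4.76%, against 2.01%) and 0 lower. Their median changes were -0.26, 0.12, 0.03 and 0.24 in that order. The kidney split became 22 higher and 21 lower with quantile normalization and 17 and 11 with spike-in scaling, with medians of 0.04 and 0.09. Of 8 other pump subunit genes, 8 were lower in the kidney (7 with quantile normalization, 3 with spike-in scaling), Atp6v1c2 most, by -1.47. Atp6v1c2 was also lower in the lung, by -0.53 (adjusted p = 0.0372 by limma), and Atp6v1e2 in the liver, by -0.64 (adjusted p = 0.0339 by limma). Of 29 hydrolases and activators, 4 were higher and 15 lower in the kidney (9 and 8 with quantile normalization, 5 and 7 with spike-in scaling), among them Galns at -1.25 and Ppt2 at -1.24, and 10 were higher in the liver. In WAT the protease gene Lgmn rose by 2.25. Of 13 membrane and transport genes, 5 were higher and 5 lower in the kidney (6 and 2 with quantile normalization, 5 and 1 with spike-in scaling), where Cd68 rose by 3.67 and Slc11a1 by 3.30. Cd68, a macrophage lysosomal protein, also rose by 3.72 in WAT, Cd63 rose by 2.60 in the liver, and Lamp3 and Laptm4b changed by -0.59 and -0.48 in the lung. Of 5 sorting genes, 1 was higher and 3 lower in the kidney (2 and 0 with spike-in scaling).

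Of the inhibitors of cathepsins, Cst3, Cstb and Cst6 were called higher in the kidney, by 0.73, 0.59 and 0.59. Cst7, the cystatin of immune cells, was in no young kidney and no young liver well above background, so that it was tested there only because the aged mice were, and its call carries no weight beyond the bound. It was at least 10.9-fold higher in aged kidneys (adjusted p = 0.000428 by limma) and at least 9.18-fold higher in aged livers (adjusted p = 0.0252). The bounds set the young mice at the lowest signal called above background on their arrays. In the lung, where all mice were above background, it rose by 2.75. Among 4 transcription factors of lysosome genes, Tfeb changed by -0.50 and Tfe3 by 0.37 in the kidney, both called (Tfeb not with spike-in scaling, at -0.15), and Tfec rose by 2.21 in the liver and by 2.65 in WAT. Of the 10 genes with CACGTG in a printed or named promoter window, 9 were called lower and 1 higher in the kidney (42.6% and 20.6% of all features), beside 10 lower and 8 higher of 24 genes whose windows lacked it, with no test made. Of those 9, only Ctsf, Atp6v1a and Glb1 were still called lower with quantile normalization or with spike-in scaling, and with quantile normalization Ctsa, Ctsl, Gaa and Lamp1 turned above 0, Ctsl and Gaa being called higher. In the liver 2 of the 10 were called higher, beside 10 of 23 without the letters.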

How the data were processed

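Total RNA from 24 tissue samples was labelled with Cy3 and hybridised to 1-colour Agilent mouse arrays. Per the file headers, the authors deposited scanner output of Agilent Feature Extraction (11.0.1.1), in which the processed signal is a background-subtracted fluorescence intensity and flags mark spots well above background. The design in the headers is a mouse array annotated on mm9, although the methods name a human array, and the headers were followed. Intensity has no read depth, so the number of arrays limits precision.

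Spots of a probe were averaged, log2 was taken and each array's 75th percentile subtracted. Probes were kept in a tissue when well above background on at least 3 of 6 arrays, and the brightest probe stood for a gene. Of 56605 probes, 58.29% had a symbol in the RefSeq table. Ages were compared in each tissue with limma (3.58.1, R 4.3.3), and age changes between tissues in 1 fit of all arrays, with p-values adjusted by Benjamini-Hochberg over all features at 0.05. An exact permutation test of 3 against 3 mice cannot go below p = 0.1 (two-sided) and was not used. Groups follow the labels. The labels do not say which tissues came from the same mouse, so in the fit of all arrays samples were treated as independent.

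The members and all gene lists were chosen with earlier results of these data known. Full statistics are given, in each tissue, for the 3 called members with the largest change in each direction, for members called in the same direction in at least 3 tissues or in opposite directions in 2, and for the 2 largest differences between tissues in each direction. Of the other lysosome genes the 3 largest called changes in each direction are named. Other genes named, such as Tfeb, Tfe3 and the cystatins, were chosen for their role. Alternatives were normexp background correction (offset 50), quantile, spike-in and median scaling, keeping dim probes, averaging the probes of a gene, 1 fit of all arrays, the methods' t-test, a replicate block and leaving out each mouse. Replicate numbers did not pair samples: deviations of same-numbered young and aged mice correlated between -0.17 and 0.18. The fits were tested on simulated data.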

Additional observations from a re-analysis of the deposited data

Results flagged for a closer look

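The age change of several lysosome genes differed between 1 tissue and the mean of the other 3 in the limma fit of all 24 arrays (adjusted p under 0.05 for each). In the kidney the change was higher by 2.09 for Ctss and by 1.35 for Ctsc, and lower by -3.22 for Atp6v0d2 and by -1.61 for Atp6v1b2. In WAT it was higher by 5.49 for Atp6v0d2 and by 2.97 for Lipa, and lower by -0.97 for Ctsc. In the lung it was lower by -2.72 for Atp6v0d2 and by -2.61 for Ctss. For Atp6v1e1 in the lung the difference was 0.44 (standard error 0.14, adjusted p = 0.0486 by limma), with 0.01 in the lung and -0.42 elsewhere, and it was lost under 25 of 31 alternatives. In the liver it was higher by 1.11 for Npc2 and by 0.80 for Glb1. It was lower there by -1.28 for Ctsw (standard error 0.37, adjusted p = 0.0266 by limma), which changed by 0.26 in the liver and 1.54 elsewhere, and by -1.10 for Ctso (standard error 0.29, adjusted p = 0.016 by limma), which changed by -1.07 and 0.03. In the liver the call was lost under 8 of 31 alternatives for Glb1, 4 for Ctsw, 3 for Ctso and 2 for Npc2. It was lost under 6 for Ctsc in WAT and 1 for Atp6v0d2 in the lung. Each tissue lay on its own slide with both ages, so a slide offset common to both ages drops out of these differences. The fit gave each gene 1 spread over all tissues, which understates that of WAT. The cause of the differences was not tested.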

How the results depend on the processing

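Of 43 named values, 18 kept their call under every alternative run, 25 lost it under at least 1 and 2 changed sign: Ctsa in the kidney was 0.047 with quantile normalization, and Man2b1 in the kidney 0.14 with quantile normalization and 0.084 with spike-in scaling. The median change of the members in the kidney turned from -0.35 to 0.12 with quantile normalization and to 0.0072 with spike-in scaling, and was -0.46 with median centring. The lung median turned from 0.04 to -0.12 with spike-in scaling. The liver median of 0.28 was 0.34 with normexp, 0.51 with quantile normalization and 0.44 with spike-in scaling. With quantile normalization the kidney had 19 members higher and 11 lower and the lung 0 lower, and 17 members differed in the kidney from the other tissues. With spike-in scaling the liver had 7 higher and 0 lower, the lung 1 higher and the kidney 10 lower, and 2, 9 and 13 members differed from the other tissues in the liver, kidney and WAT. With normexp 2 were higher in the lung and 8 in WAT. Without the filter on dim probes 2 were lower in the liver, 1 was higher and 0 lower in the lung and 3 were higher in WAT, and 3 members differed in the liver. With all 24 arrays in 1 fit 3 were lower in the liver, 0 lower in the lung and 30 higher in WAT. The methods' t-test, after Benjamini-Hochberg, called 1 higher and 0 lower in the lung and 0 in WAT. The causes were not tested.

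The replicate number as a block left the liver with 3 higher and 0 lower, the lung with 0 and 0, the kidney with 10 and 23 and WAT with 1 and 0, and 3 members differed in the liver and 5 in the lung from the other tissues. The samples share only a number, so this block does not stand for a pairing.

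Leaving out 1 mouse at a time gave 5 to 13 higher and 0 to 2 lower in the liver (median 0.24 to 0.33), 0 to 4 and 0 to 1 in the lung (median -0.00092 without young mouse 1, to 0.12), 10 to 12 and 22 to 24 in the kidney (median -0.38 to -0.30) and 1 to 4 and 0 in WAT (median 0.67 to 1.02). Members that differed from the other tissues numbered 1 to 8 in the liver, 4 to 10 in the lung, 21 to 29 in the kidney and 20 to 30 in WAT. Probes near background, such as those of Ctse and Atp6v1b1, carry less precise changes.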
